A study of Mus musculus with 10 samples.

Results

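Potassium channel genes were taken as all rows of the deposited tables whose name starts with Kcn, except Kcnq1ot1, a long noncoding RNA that runs antisense to Kcnq1. The rule found 94 genes among 30431 rows. Of these, 47 had an average of at least 0 on the log2 scale of read counts scaled to library size (CPM), which is 1 CPM, and the other 47 lay below it. The average is taken over all libraries, so a gene could also reach it through high values in a single group. Among the lower genes, 6 stood at the lowest average of the whole table, 0.0514 CPM, and had a log2 fold change of 0 in every comparison in the authors' deposited tables. They were Kcna4, Kcna10, Kcnj6, Kcnk15, Kcnk16 and Kcnk18.

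RNA of whole kidneys was sequenced at postnatal day 21 in 10 mice. The DM group held 3 mice labelled Pkhd1Cre; Pkd2 F/F; miR-21null, which have Pkd2 deleted and lack the microRNA miR-21. The SM group held 3 mice labelled Pkhd1Cre; Pkd2 F/F, with the Pkd2 deletion alone, and 4 mice were labelled wild-type (WT). Pkd2 encodes polycystin-2, whose loss in tubule cells causes polycystic kidney disease, and the Pkhd1Cre driver is active mainly in the collecting duct, so other tubules and the vessels and stroma keep the gene. Information on a Cre driver or floxed alleles in WT mice was not given in the sources used here. These comparisons ask how potassium channel RNA differs in cystic kidneys, and whether it differs further where miR-21 is missing.

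The data are the authors' own tables of 3 comparisons, with each mutant compared with WT and DM compared with SM, and hold no value per mouse. Group levels in CPM were therefore computed from the deposited average and fold changes, and the error given beside a log2 fold change is the standard error (SE) implied by the authors' likelihood ratio test. The SM and DM comparisons with WT share the same 4 WT mice and are not independent of each other. A gene was called where the adjusted p of the authors' deposited table was below 0.05. In whole tissue, fewer cells of a type and less RNA per cell cannot be told apart. As a check of the labels, the Pkd2 log2 fold changes were -0.41 (implied SE 0.20, adjusted p = 0.179) in SM versus WT and -0.49 (SE 0.20, adjusted p = 0.0838) in DM versus WT in the authors' deposited tables. These did not pass, and the row covers the whole gene in all kidney cells. The Mir21 row stood at the lowest average and checks nothing.

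Potassium channels let potassium ions pass through the cell membrane along their gradient and set the membrane voltage that drives other transport. In the nephron, basolateral channels return the potassium taken up by the sodium pump, apical channels secrete it into the tubule, and the resulting voltage drives chloride and bicarbonate movement. The family divides into inward rectifiers (Kcnj), two-pore-domain leak channels (Kcnk), calcium- or sodium-activated channels (Kcnma, Kcnn, Kcnt and Kcnu), voltage-gated channels and auxiliary subunits that bind to pore-forming proteins. MicroRNAs repress transcripts that carry a match to their seed, the bases 2 to 8 of the mature strand.

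The sequence of the deleted microRNA, with the seed in capitals, is shown because the DM against SM comparison turns on it, and it comes from RefSeq (GRCm38.p6, chromosome 11, 86584120 to 86584141, minus strand).
mmu-miR-21a-5p: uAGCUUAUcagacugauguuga
The word ATAAGCT, which pairs with this seed, was found in the longest annotated 3′ UTR of 12 of the 94 channel genes and of 7 of the 47 with at least 1 CPM. That is 14.9% of those 47, where 8.11% of 12831 genes with at least 1 CPM hold the word. The median 3′ UTR was 1860 bases long in the 47 channel genes and 1192 bases in those 12831 genes, and a longer UTR holds any word more often. The 7 sites follow with their flanks, the match in capitals, from GENCODE M21 transcripts on GRCm38.
Kcnj15, chromosome 16, 95299743 to 95299749, plus strand: agaattaaatgATAAGCTtactggatgtc
Kcnj16, chromosome 11, 111026088 to 111026094, plus strand: tagagaagcagATAAGCTaaatatttgca
Kcnj5, chromosome 9, 32316291 to 32316297, minus strand: ggttgaaaacaATAAGCTgtcctggtctt
Kcnk6, chromosome 7, 29223905 to 29223911, minus strand: caggtgataaaATAAGCTaagcaatataa
Kcnd3, chromosome 3, 105670899 to 105670905, plus strand: ttaaaatacagATAAGCTgttcatttgca
Kcne4, chromosome 1, 78818718 to 78818724, plus strand: tagctgggagtATAAGCTatgacctcatc
Kcnmb1, chromosome 11, 33973542 to 33973548, plus strand: aatgcaaaacgATAAGCTttctcttggtt
In Kcnj16, Kcnk6 and Kcne4 the match is followed by an A, the form known as an 8mer site. A match is a property of the sequence and does not show that the microRNA binds there.

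In SM versus WT, 17 of the 94 channel genes passed in the authors' deposited table. Of these 10 were higher and 7 lower, where 14.0% of all rows were called, 7.87% higher and 6.09% lower. Among the 47 genes with at least 1 CPM, 7 were higher and 7 lower, against 21.6% called of the 15135 rows at that level, 12.2% higher and 9.47% lower. In DM versus WT, 20 genes passed in the authors' deposited table. Of these 8 were higher and 12 lower, where 13.5% of all rows were called, 7.55% higher and 5.92% lower. Of the 47, 5 were higher and 11 lower, against a background of 19.8% called, 11.3% higher and 8.53% lower. The median log2 fold change of the 47 was -0.15 in SM versus WT and -0.30 in DM versus WT, while all 15135 rows had medians of -0.01 and 0.00. Called inward rectifiers and calcium- or sodium-activated channels at that level were all lower, and most called voltage-gated pores were higher.

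**Figure D1:**
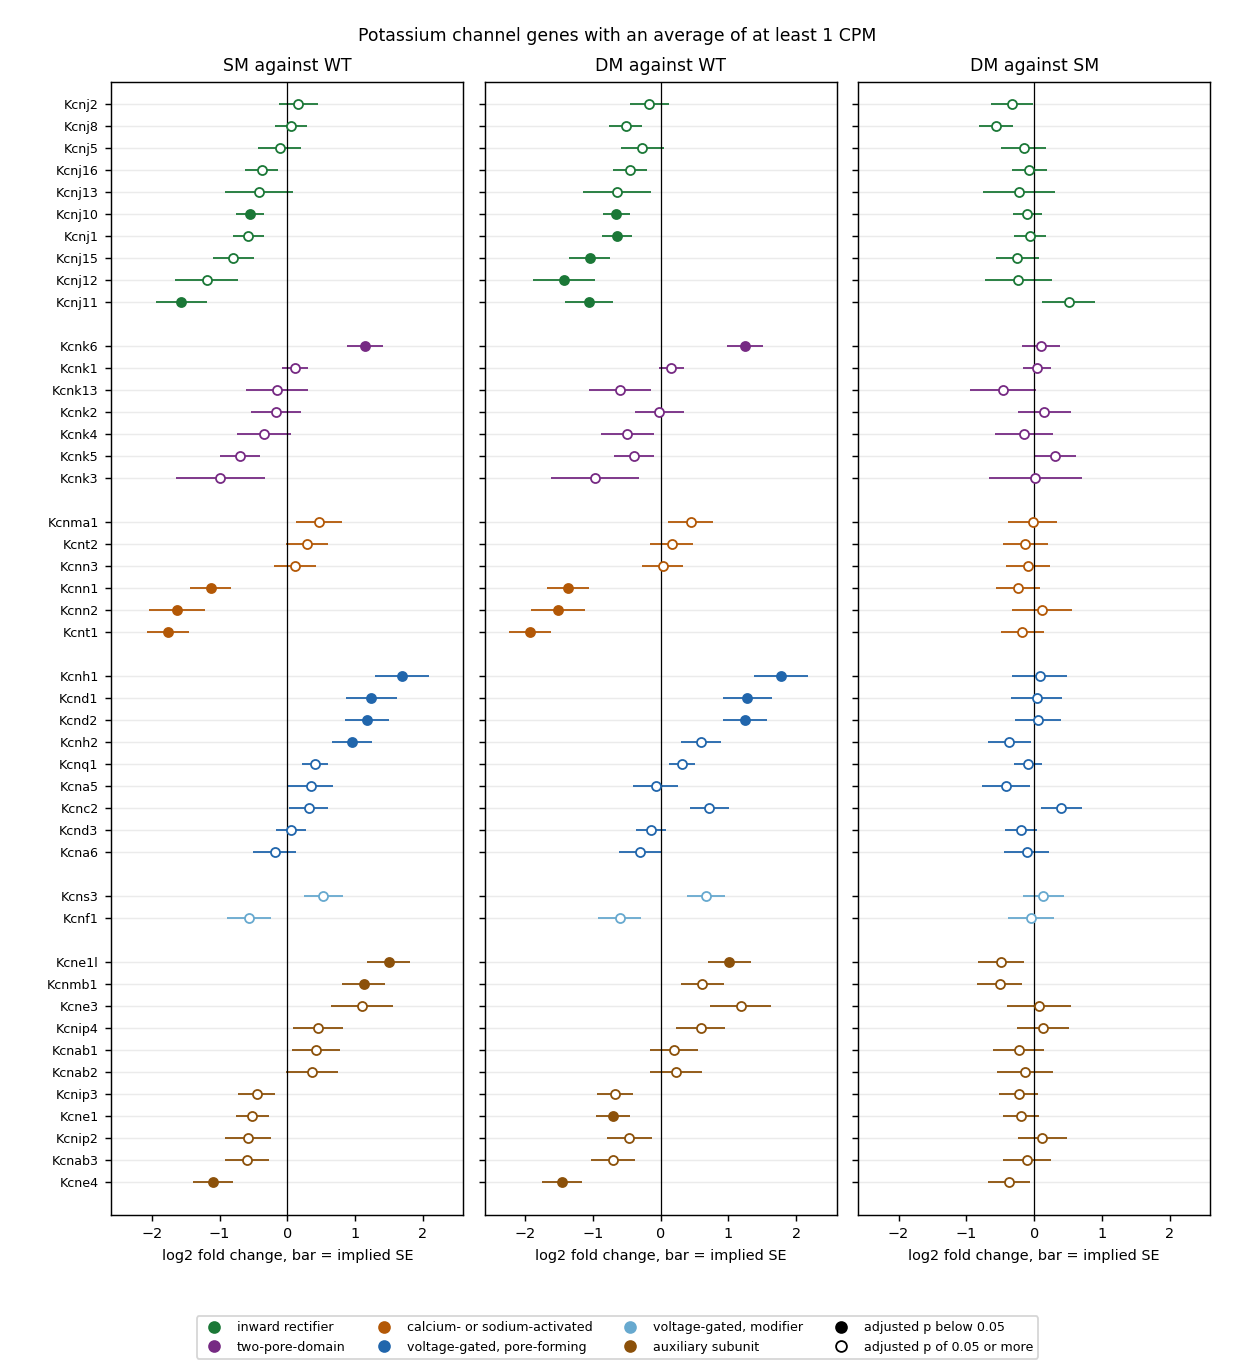
Log2 fold change of 45 of the 47 potassium channel genes that average 1 CPM or more, in SM versus WT, DM versus WT and DM against SM, grouped by family. Points are the authors' deposited values, bars the implied SE, and filled points have an adjusted p below 0.05. Filled points of the inward rectifiers and of the calcium- or sodium-activated channels lie left of 0, filled points of the voltage-gated pores lie right of 0, and DM against SM has no filled point.

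**Figure D2:**
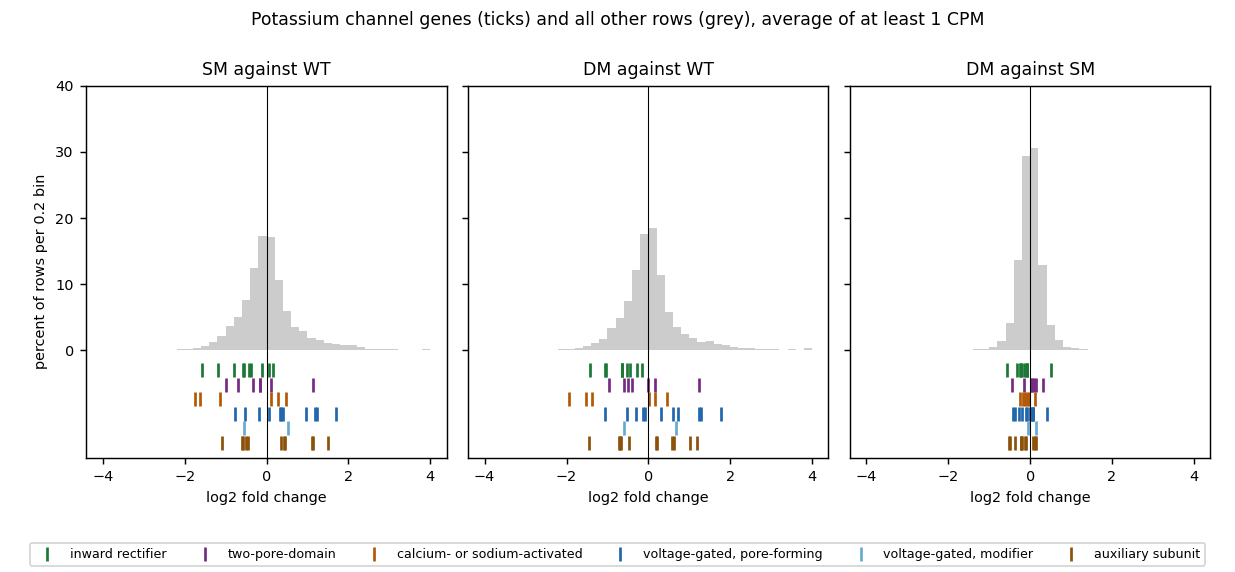
Distribution of log2 fold changes in each comparison for rows averaging 1 CPM or more that are not potassium channel genes (grey, percent of rows per bin of 0.2, with values beyond the axis placed in the outermost bins), and the 47 channel genes as ticks by family. Ticks of the inward rectifiers lie mostly below 0 versus WT, and ticks of DM against SM lie close to 0, between -0.57 and 0.51.

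The inward rectifiers hold the main potassium channels of the nephron. None of the 15 was called higher versus WT, where 7.55% of all rows were called higher in DM and 7.87% in SM. An absence among 15 genes lies near those shares. Of the 10 with at least 1 CPM, 2 fell in SM versus WT and 5 fell in DM versus WT, with median log2 fold changes of -0.49 and -0.65 in the authors' deposited tables. Among all rows at that level, 9.47% were called lower in SM and 8.53% in DM. Kcnj1 (ROMK, chromosome 9, 32372493 to 32399197) secretes potassium across the apical membrane of the thick ascending limb and collecting duct. Its computed levels were 243.5 CPM in DM, 255 CPM in SM and 380 CPM in WT. The authors' deposited tables give it a log2 fold change of -0.64 (SE 0.23, adjusted p = 0.0354) in DM versus WT, and -0.58 (SE 0.23, adjusted p = 0.0679) in SM versus WT, which did not pass. Both mutant groups stood below WT and close to each other.

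Kcnj10 (Kir4.1) and Kcnj16 (Kir5.1) encode the subunits of the basolateral channel of the distal convoluted tubule. Kcnj10 (chromosome 1, 172341210 to 172374085) stood at 80.7 CPM in DM, 86.7 CPM in SM and 127 CPM in WT. It fell in both comparisons with WT, by 0.65 on the log2 scale in DM (SE 0.20, adjusted p = 0.013) and by 0.55 in SM (SE 0.20, adjusted p = 0.0458) in the authors' deposited tables. The SM call lies close to the threshold and was lost, with adjusted p = 0.0519, once fold changes were recentred on the median row. Kcnj16 stood at 439 CPM in DM, 461 CPM in SM and 599 CPM in WT. Its log2 fold changes of -0.45 (SE 0.25, adjusted p = 0.269) in DM and -0.38 (SE 0.25, adjusted p = 0.397) in SM did not pass in the authors' deposited tables.

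Kcnj15 (Kir4.2), a basolateral channel of the proximal tubule, had the highest count level of the family. Its computed levels were 457 CPM in DM, 542 CPM in SM and 942 CPM in WT. It fell by 1.05 on the log2 scale in DM versus WT (SE 0.30, adjusted p = 0.00693), as listed in the authors' deposited table. In SM versus WT the value was -0.80 (SE 0.30, adjusted p = 0.0541), as listed in the authors' deposited table, just past the threshold, and it passed with adjusted p = 0.0492 when p was adjusted over named genes only. Per kilobase of annotated exon, WT levels were 152 CPM for Kcnj16, 149 CPM for Kcnj15, 114 CPM for Kcnj1 and 23.5 CPM for Kcnj10. The lengths come from GENCODE and not from the authors' assembly, so this order is approximate, and no error is available to separate the first pair.

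The pores of the ATP-sensitive channels are encoded by Kcnj11 and Kcnj8. Kcnj11 (Kir6.2), which couples membrane voltage to cell energy state, stood at 1.16 CPM in DM, 0.819 CPM in SM and 2.42 CPM in WT. It fell by 1.06 in DM (SE 0.36, adjusted p = 0.0258) and by 1.57 in SM (SE 0.38, adjusted p = 7.07e-04) on the log2 scale in the authors' deposited tables. Kcnj8 (Kir6.1), the pore of vascular smooth muscle and pericytes, stood at 14.2 CPM in DM, 21.0 CPM in SM and 20.3 CPM in WT. Its log2 fold changes of -0.52 (SE 0.24, adjusted p = 0.15) in DM and 0.05 (SE 0.24, adjusted p = 1) in SM versus WT did not pass in the authors' deposited tables. Kcnj12 (Kir2.2), a strong inward rectifier, stood at 0.637 CPM in DM, 0.75 CPM in SM and 1.71 CPM in WT. It fell by 1.43 in DM versus WT (SE 0.46, adjusted p = 0.0179), and its -1.19 (SE 0.46, adjusted p = 0.065) in SM did not pass in the authors' deposited tables. The other inward rectifiers with at least 1 CPM, Kcnj2, Kcnj5 and Kcnj13, had log2 fold changes between -0.65 and 0.16 versus WT in the authors' deposited tables and were not called. About 49.1% of the annotated exon bases of Kcnj13 overlap Gigyf2 on the other strand, and the strand setting of the counting was not given in the sources used here.

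**Figure D3:**
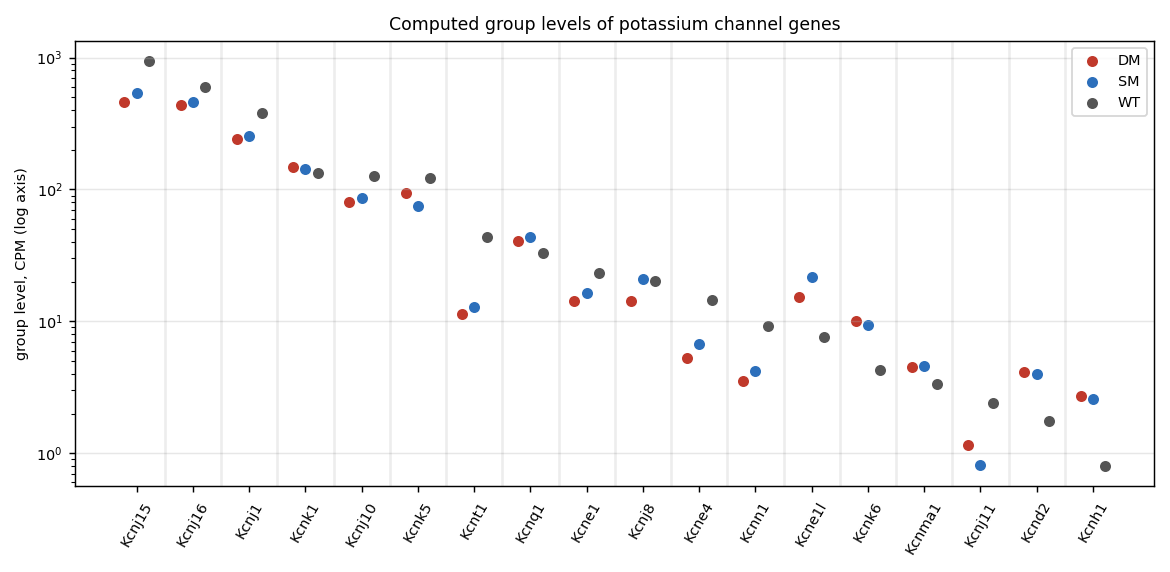
Computed group levels in CPM (log axis) of 18 potassium channel genes in DM, SM and WT, ordered by the WT level. Points are computed from the authors' deposited averages and fold changes, with no value per mouse and so no error bar. DM and SM points lie below WT for Kcnj15, Kcnj1, Kcnj10, Kcnt1, Kcne4, Kcnn1 and Kcnj11, and above WT for Kcne1l, Kcnk6, Kcnd2 and Kcnh1.

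Summed levels of proximal tubule, thick ascending limb and distal convoluted tubule markers were also lower in both mutant groups, and those of principal cells were higher. Some single markers went the other way without a call. Cldn16 of the thick ascending limb had 0.50 in DM and 0.42 in SM versus WT. Of the principal cell markers, Aqp2 had -0.06 in DM and -0.28 in SM, and Aqp3 had -0.11 in DM and -0.27 in SM. In DM, SM and WT, summed levels of 10 proximal tubule markers were 6635, 6330 and 14965 CPM, those of 8 thick ascending limb markers 5308, 4695 and 8310 CPM, and those of 7 distal convoluted tubule markers 1283, 1209 and 2263 CPM. In the authors' deposited tables, 8 of the 10 proximal tubule markers fell in DM and 7 in SM (median log2 fold changes -1.26 and -1.37). Thick ascending limb markers fell for 4 of 8 in DM and 5 of 8 in SM (medians -0.72 and -0.69), and distal convoluted tubule markers for 4 of 7 in each (medians -0.88 and -0.96). The 8 principal cell markers of the collecting duct summed to 1124 CPM in DM, 1216 CPM in SM and 860 CPM in WT, with 3 called higher in DM and 6 in SM. The 7 intercalated cell markers summed to 491, 519 and 610 CPM and the 8 endothelial markers to 757, 975 and 1076 CPM in DM, SM and WT, with 3 intercalated and 4 endothelial markers called lower in DM. In SM, 1 intercalated marker was called higher and 2 lower, and no endothelial marker passed in the authors' deposited table. In all these lists no marker was at the lowest level, and their part in the channel values was not tested.

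**Figure D4:**
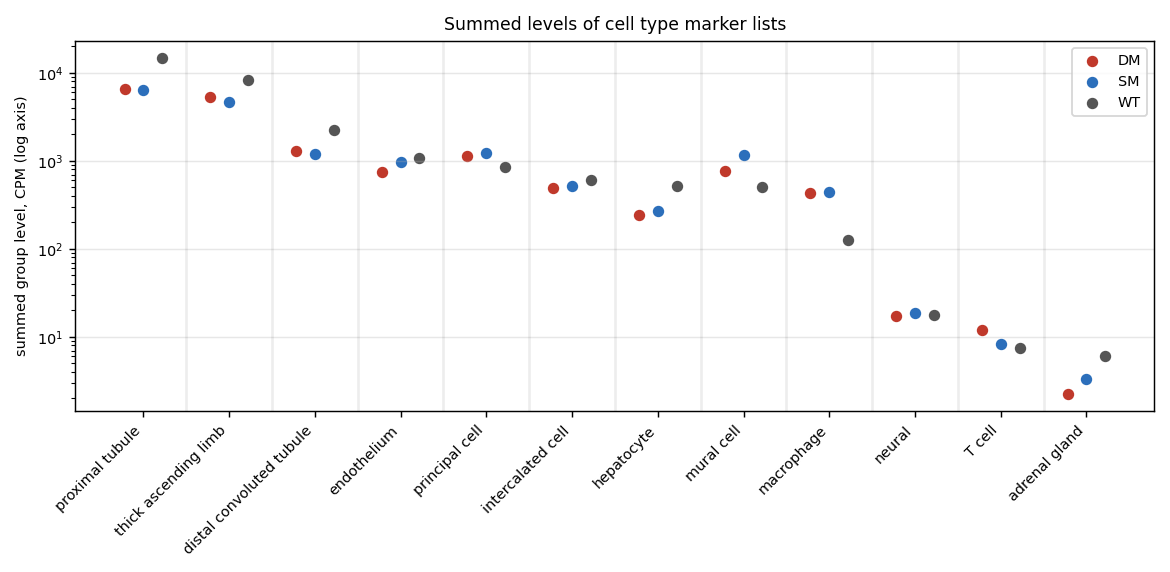
Summed computed levels in CPM (log axis) of the cell type marker lists in DM, SM and WT, ordered by the WT sum, with no error bar since no value per mouse is available. Proximal tubule, thick ascending limb and distal convoluted tubule sums are lower in DM and SM than in WT, while macrophage, mural cell and principal cell sums are higher.

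Among the 14 two-pore-domain channels, which carry background leak currents, Kcnk6 was called higher in both comparisons with WT and the low-level Kcnk10 in DM. No member was called lower, where 5.92% of all rows were called lower in DM and 6.09% in SM. An absence among 14 genes lies near those shares. Kcnk6 (TWIK2, chromosome 7, 29221926 to 29232515) stood at 10.1 CPM in DM, 9.38 CPM in SM and 4.24 CPM in WT. It rose by 1.25 in DM (SE 0.27, adjusted p = 8.23e-05) and by 1.15 in SM (SE 0.27, adjusted p = 3.91e-04) on the log2 scale in the authors' deposited tables, or 2.38-fold and 2.21-fold. TWIK2 is known as a potassium efflux channel of macrophages and endothelium. Macrophage markers rose in the same comparisons, for 7 of 8 measured genes in DM and 8 of 8 in SM in the authors' deposited tables. Their summed levels were 434 CPM in DM, 444 CPM in SM and 127 CPM in WT. The 8 endothelial markers summed to 757 CPM in DM, 975 CPM in SM and 1076 CPM in WT, with 4 called lower in DM. In SM, Pecam1 and Cdh5 of that list had positive values without a call. The part of either list in the Kcnk6 value was not tested.

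The abundant leak channels of the tubule were not called. Kcnk1 (TWIK1), found along the nephron, stood at 147 CPM in DM, 143 CPM in SM and 132 CPM in WT. Its log2 fold changes were 0.16 (SE 0.19, adjusted p = 0.75) in DM and 0.11 (SE 0.19, adjusted p = 0.888) in SM versus WT in the authors' deposited tables. Kcnk5 (TASK2), which supports bicarbonate reabsorption in the proximal tubule, stood at 93.5 CPM in DM, 75.5 CPM in SM and 123 CPM in WT. Its log2 fold changes of -0.39 (SE 0.30, adjusted p = 0.499) in DM and -0.70 (SE 0.30, adjusted p = 0.106) in SM did not pass in the authors' deposited tables. Kcnk3 (TASK1) had the widest error of the 47 genes, with a log2 fold change of -0.97 (SE 0.65, adjusted p = 0.413) in DM and -0.99 (SE 0.66, adjusted p = 0.407) in SM in the authors' deposited tables. Kcnk2, Kcnk4 and Kcnk13 had values between -0.60 and -0.02 versus WT in the authors' deposited tables and were not called.

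Of the 8 calcium- or sodium-activated channels, 3 fell in each comparison with WT. Among all rows, 5.92% were called lower in DM and 6.09% in SM. Kcnt1 (Slack, chromosome 2, 25863734 to 25918273), a sodium-activated potassium channel best known from neurons, showed the largest fall of the 47 genes in each comparison. It stood at 11.4 CPM in DM, 12.9 CPM in SM and 43.6 CPM in WT. The log2 fold change was -1.93 (SE 0.31, adjusted p = 6.91e-08) in DM and -1.76 (SE 0.31, adjusted p = 9.08e-07) in SM in the authors' deposited tables, which is 3.81-fold and 3.38-fold lower than WT. Its relative Kcnt2 (Slick) had values of 0.16 in DM and 0.29 in SM versus WT in the authors' deposited tables and was not called.

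The small-conductance calcium-activated channels were split. Kcnn1 (SK1) stood at 3.55 CPM in DM, 4.20 CPM in SM and 9.19 CPM in WT, and it fell by 1.37 in DM (SE 0.31, adjusted p = 2.08e-04) and by 1.13 in SM (SE 0.31, adjusted p = 0.00307) on the log2 scale in the authors' deposited tables. Kcnn2 (SK2) stood at 0.70 CPM in DM, 0.647 CPM in SM and 2.0 CPM in WT. It fell by 1.51 in DM (SE 0.40, adjusted p = 0.00268) and by 1.62 in SM (SE 0.42, adjusted p = 0.00159) in the authors' deposited tables. Kcnn3 (SK3), at 5.82, 6.17 and 5.71 CPM in DM, SM and WT, had values of 0.03 in DM and 0.11 in SM versus WT in the authors' deposited tables. Kcnn4, the intermediate-conductance channel that supports chloride secretion by epithelia, lay below 1 CPM on average, at 1.0 CPM in DM, 0.923 CPM in SM and 0.482 CPM in WT. Its log2 fold changes of 1.06 (SE 0.48, adjusted p = 0.137) in DM and 0.94 (SE 0.49, adjusted p = 0.232) in SM were not called in the authors' deposited tables. Kcnma1 (BK), the flow-activated secretory channel of the distal nephron, stood at 4.53 CPM in DM, 4.60 CPM in SM and 3.33 CPM in WT, with values of 0.44 (SE 0.33, adjusted p = 0.499) in DM and 0.46 (SE 0.34, adjusted p = 0.472) in SM in the authors' deposited tables.

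The called voltage-gated pores with at least 1 CPM were mostly higher. Among the 11 pore-forming genes with at least 1 CPM, 3 rose and 1 fell in DM versus WT, and 4 rose and 1 fell in SM versus WT in the authors' deposited tables. Of all rows at that level, 11.3% were called higher and 8.53% lower in DM, and 12.2% higher and 9.47% lower in SM. Calls leaned higher among all rows too. Kcnh1 (EAG1, chromosome 1, 192190774 to 192510159), a channel normally found mainly in brain, stood at 2.72 CPM in DM, 2.57 CPM in SM and 0.797 CPM in WT. It rose by 1.77 in DM (SE 0.40, adjusted p = 2.26e-04) and by 1.69 in SM (SE 0.40, adjusted p = 5.47e-04) on the log2 scale in the authors' deposited tables, or 3.41-fold and 3.23-fold. Kcnh2 (ERG1), the channel of cardiac repolarization, stood at 5.98 CPM in DM, 7.69 CPM in SM and 3.97 CPM in WT. It rose by 0.95 in SM (SE 0.30, adjusted p = 0.0135), while its 0.59 (SE 0.30, adjusted p = 0.203) in DM did not pass in the authors' deposited tables. The Kcnh2 difference between DM and SM was itself -0.36 (SE 0.32, adjusted p = 1), as listed in the authors' deposited table.

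Of the Kv4 channels, which carry fast transient currents, Kcnd1 and Kcnd2 rose. Kcnd2 (chromosome 6, 21215503 to 21729805) stood at 4.16 CPM in DM, 3.98 CPM in SM and 1.76 CPM in WT, and rose by 1.24 in DM (SE 0.32, adjusted p = 0.00196) and by 1.18 in SM (SE 0.33, adjusted p = 0.00399) in the authors' deposited tables. Kcnd1 stood at 1.52 CPM in DM, 1.48 CPM in SM and 0.628 CPM in WT, and rose by 1.28 (SE 0.37, adjusted p = 0.00617) in DM and by 1.24 (SE 0.37, adjusted p = 0.00988) in SM in the authors' deposited tables. Kcnd3 had a higher level, 18.8 CPM in DM, 21.5 CPM in SM and 20.7 CPM in WT, and was not called, with values of -0.14 in DM and 0.05 in SM in the authors' deposited tables.

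Kcnq1, the pore that pairs with Kcne1 in the proximal tubule brush border, stood at 41.0 CPM in DM, 43.5 CPM in SM and 32.9 CPM in WT. Its log2 fold changes of 0.32 (SE 0.19, adjusted p = 0.34) in DM and 0.40 (SE 0.19, adjusted p = 0.172) in SM did not pass in the authors' deposited tables. Kcna5, Kcna6 and Kcnc2 lay between -0.30 and 0.72 versus WT in the authors' deposited tables and were not called. The modifier subunits, which form channels only together with other voltage-gated pores, had Kcns3 and Kcnf1 above 1 CPM. Their values ranged from -0.61 to 0.67 versus WT in the authors' deposited tables, without a call. Of 9 neural markers, which share several of these channels' usual tissue, 3 were called higher and 1 lower in DM and 3 higher and 2 lower in SM in the authors' deposited tables. Summed levels of the neural markers were 17.4 CPM in DM, 18.7 CPM in SM and 17.6 CPM in WT, and their part in the voltage-gated increases was not tested.

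Auxiliary subunits moved in both directions. Kcne1l (now named Kcne5, chromosome X, 142304752 to 142306294) encodes a partner of Kcnq1 that inhibits its current. It stood at 15.4 CPM in DM, 21.5 CPM in SM and 7.62 CPM in WT, and rose by 1.01 in DM (SE 0.31, adjusted p = 0.0139) and by 1.50 in SM (SE 0.32, adjusted p = 6.46e-05) on the log2 scale in the authors' deposited tables. Kcne4, another inhibitory partner of Kcnq1, did the opposite. Its levels were 5.26 CPM in DM, 6.78 CPM in SM and 14.5 CPM in WT, and it fell by 1.46 in DM (SE 0.30, adjusted p = 3.15e-05) and by 1.09 in SM (SE 0.29, adjusted p = 0.0028) in the authors' deposited tables. Kcne1 itself stood at 14.2 CPM in DM, 16.3 CPM in SM and 23.3 CPM in WT. It fell by 0.71 in DM (SE 0.25, adjusted p = 0.0367), and its -0.51 (SE 0.25, adjusted p = 0.181) in SM did not pass in the authors' deposited tables. Kcne3 averaged just above 1 CPM and was not called, at 1.18 (SE 0.45, adjusted p = 0.0641) in DM and 1.10 (SE 0.46, adjusted p = 0.0948) in SM in the authors' deposited tables.

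Kcnmb1, the BK channel subunit of smooth muscle, stood at 4.18 CPM in DM, 5.95 CPM in SM and 2.72 CPM in WT. In SM it rose by 1.13 on the log2 scale (SE 0.32, adjusted p = 0.00481), and its 0.62 (SE 0.32, adjusted p = 0.216) in DM versus WT did not pass in the authors' deposited tables. Of the 8 mural cell markers, of smooth muscle and pericytes, 4 were called higher in SM and 2 in DM in the authors' deposited tables. Des had -0.23 in SM and -0.48 in DM, and in DM Myh11 had -0.36 and Pdgfrb -0.22, all without a call. The other mural cell markers had positive values versus WT. Summed levels of the 8 markers were 779 CPM in DM, 1156 CPM in SM and 504 CPM in WT. Of these sums, Acta2 alone held 335 CPM in DM, 508 CPM in SM and 93.7 CPM in WT. None of the 8 markers was at the lowest level, and their part in the Kcnmb1 value was not tested. The remaining auxiliary subunits with at least 1 CPM, 3 Kcnab and 3 Kcnip genes, were not called, with values between -0.70 and 0.59 versus WT in the authors' deposited tables.

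Below 1 CPM, 6 channel genes were called in at least a single comparison with WT in the authors' deposited tables. They were 4 of 47 in DM, where 7.18% of the 15296 rows below 1 CPM were called, and 3 of 47 in SM, where 6.37% were, so these shares lie near the background. Kcnb2 (Kv2.2) stood at 0.456 CPM in DM, 0.646 CPM in SM and 0.218 CPM in WT and rose in SM (log2 fold change 1.56, SE 0.46, adjusted p = 0.00773), with 1.06 (adjusted p = 0.116) in DM. Kcnip1, a calcium-binding subunit of Kv4 channels, stood at 0.265 CPM in DM, 0.314 CPM in SM and 0.0652 CPM in WT and was higher in DM (adjusted p = 0.0228) and in SM (adjusted p = 0.00949) in the authors' deposited tables. The modifier Kcng4 fell in DM (log2 fold change -1.84, SE 0.57, adjusted p = 0.0143), at 0.245 CPM in DM, 0.46 CPM in SM and 0.875 CPM in WT, and had adjusted p = 0.336 in SM in the authors' deposited tables. For Kcnk10, Kcnmb4 and Kcns2 the computed WT level lay below the lowest average of the tables, so no fold is given. Kcnk10 was higher in DM (adjusted p = 0.0114; 0.304 in SM), as was Kcnmb4 (adjusted p = 0.00273; 0.0556 in SM), and Kcns2 was higher in SM (adjusted p = 0.0199; 0.0526 in DM) in the authors' deposited tables. Kcna10, a channel described in kidney, stood at the lowest average in the tables and gives no information.

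Other genes of potassium handling were read from a list of 38, of transporters, kinases and channel partners outside the Kcn names. In the authors' deposited tables, 4 were higher and 9 lower in DM versus WT, with a list median of -0.03. In SM versus WT, 5 were higher and 8 lower, with a list median of -0.10. Of all rows, 13.5% were called in DM versus WT and 14.0% in SM versus WT. Among rows with at least 1 CPM these shares were 19.8% and 21.6%. The thiazide-sensitive cotransporter Slc12a3 fell by 1.01 in DM (SE 0.28) and by 1.41 in SM (SE 0.29) in the authors' deposited tables. Its regulators Wnk4, a kinase, and Klhl3, a ubiquitin ligase adaptor, fell by 1.005 and 1.18 in DM and by 1.33 and 1.13 in SM in the authors' deposited tables. Bsnd, the chloride channel subunit barttin, fell by 0.85 in DM and 1.20 in SM, and Fxyd2, a subunit of the sodium pump, by 0.96 in DM and 1.11 in SM in the authors' deposited tables. The loop cotransporter Slc12a1 fell in SM (-1.01, adjusted p = 0.0176) and had -0.72 (adjusted p = 0.132) in DM in the authors' deposited tables.

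The potassium-absorbing proton pumps moved apart. Atp12a, the colonic form, rose by 1.56 in DM (SE 0.36) and by 2.50 in SM (SE 0.37), and Atp4a, the gastric form, fell by 1.69 in DM (SE 0.27) and by 1.79 in SM (SE 0.27) on the log2 scale in the authors' deposited tables. Of the sodium channel subunits that set the voltage for potassium secretion, Scnn1g rose by 0.65 in DM and 0.69 in SM, and Scnn1b rose by 1.03 in SM with 0.62 (adjusted p = 0.077) in DM in the authors' deposited tables. Fxyd4, a collecting duct subunit of the sodium pump, rose by 1.10 in DM and 1.15 in SM in the authors' deposited tables. The BK channel's leucine-rich partners went opposite ways, since Lrrc52 fell by 1.95 in DM and 2.32 in SM and Lrrc38 was higher in both in the authors' deposited tables, with no fold given for Lrrc38 because its computed WT level lay below the lowest average. The sodium pump subunit Atp1b1 had -0.71 in DM and -0.82 in SM in the authors' deposited tables and was not called. The partners that were not called, 25 in each comparison, had medians of 0.01 in DM and -0.08 in SM in the authors' deposited tables.

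With miR-21 missing as well, potassium channel RNA was not called different from that of the Pkd2 deletion alone. In DM against SM, 0 of the 94 channel genes were called in the authors' deposited table, where 0.0789% of all rows (24) were called, and 0.0859% of those with at least 1 CPM (13). At an unadjusted p below 0.05 there were 2 channel genes, Kcnj8 and Kcnk12, and 1140 of all rows. Log2 fold changes of the 47 genes with at least 1 CPM ranged from -0.57 to 0.51, with a median of -0.11, while the 15135 rows at that level had a median of 0.00. The 95% interval, taken as 1.96 implied SE to each side, lay within 1 on the log2 scale for 38 of the 47 genes, or 80.9%, and for 80.6% of those 15135 rows. For Kcnj1 it ran from -0.53 to 0.40, for Kcnj10 from -0.52 to 0.32, for Kcnk1 from -0.35 to 0.44 and for Kcnt1 from -0.80 to 0.45, so a change of 2-fold or more lies outside each of these intervals. For Kcnk3, from -1.32 to 1.36, and Kcnj11, from -0.27 to 1.29, larger differences remain within the interval.

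**Figure D5:**
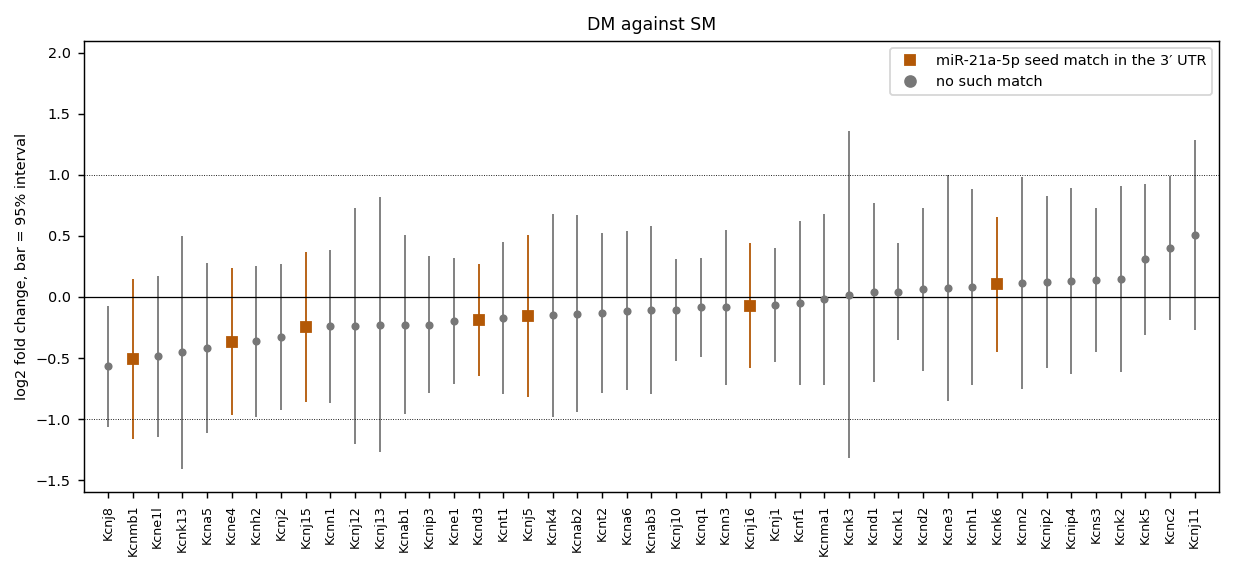
Log2 fold change of 45 of the 47 potassium channel genes with at least 1 CPM in DM against SM, ordered by value, with 95% intervals from the implied SE and dotted lines at -1 and 1. Squares mark the 7 genes whose 3′ UTR holds the miR-21a-5p seed match. Every interval drawn except that of Kcnj8 includes 0, and 6 of the 7 squares lie below 0, where 31 of all 47 genes do.

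The 7 genes whose sites are printed above had DM against SM values of -0.51 (Kcnmb1), -0.37 (Kcne4), -0.25 (Kcnj15), -0.19 (Kcnd3), -0.16 (Kcnj5), -0.07 (Kcnj16) and 0.10 (Kcnk6), as listed in the authors' deposited table. Their implied SEs ran from 0.23 to 0.34, each 95% interval included 0, and each adjusted p was 1. Their median was -0.19, against -0.09 for the 40 channel genes at that level without the word. Of the 3 genes with the 8mer site, the interval ran from -0.97 to 0.23 for Kcne4, from -0.59 to 0.44 for Kcnj16 and from -0.45 to 0.65 for Kcnk6.

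Kcnj8 was the channel gene with the smallest unadjusted p in DM against SM among the 47, at -0.57 (SE 0.25, p = 0.0252, adjusted p = 1), as listed in the authors' deposited table. Abcc9, which encodes the sulphonylurea receptor SUR2 that assembles with the Kcnj8 pore, had -0.67 in DM against SM (SE 0.25, adjusted p = 0.879), as listed in the authors' deposited table. Abcc9 fell in DM versus WT (-0.77, SE 0.24, adjusted p = 0.0139) and was not called in SM versus WT (-0.10, adjusted p = 0.982) in the authors' deposited tables. Mural cell markers, none called in DM against SM, had a median of -0.54 there, with the summed levels of 779 CPM in DM and 1156 CPM in SM given for Kcnmb1. Their part in the Kcnj8 and Abcc9 values was not tested.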

How the data were processed

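A stranded kit for total RNA was used, per the labels' protocols. Tools named in the submitters' processing notes, without their roles, are edgeR 3.2.4, featureCounts, Subread 1.4.6, Cufflinks, TopHat2 2.0.12 and bcl2fastq 1.8.4, and the build is mm10. Per the file headers, the authors deposited for each row the log2 fold change and average log2 CPM, a likelihood ratio score, a p-value and an adjusted p-value. On the files, the averages were identical in the 3 tables, p was the chi-square tail of the score, and the adjustment was Benjamini-Hochberg over all 30431 rows, with none removed for low values. Library sizes were not given in the sources used here. Thus depth and counting error are unknown. The p-values are those of a likelihood ratio test for a difference between groups of mice labelled as separate animals. Without values per mouse, the spread between mice that the test assumed cannot be checked.

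The implied SE is the absolute log2 fold change over the root of the score. Group levels assume that the deposited average is the mean over 10 libraries. The SE step was tested on simulated counts, only at levels of at least 1 CPM and with a fixed spread between libraries. The simulated check of the group levels was built on the same mean. It therefore covers the formula and cannot test whether the deposited average is that mean. Python 3.11.15, numpy 2.4.6, scipy 1.17.1 and pandas 2.3.3 were used. All 94 genes matched GENCODE M21 by symbol, and 28 share exon bases with another gene. The tables hold no counts, and the test is the authors' deposited likelihood ratio test from edgeR, as planned for that case. The rule for named genes was every called channel gene, 13 channels known from kidney whatever their values, and every called gene of the partner list. A few genes it covers are not reported here and are left out of the plots that label genes, though they stay in the counts. Other channel genes not called, such as Kcnt2, Kcnn3, Kcnk3, Kcnd3, Kcne3, Kcnk12 and the uncalled partners were added after their values were seen. Members and lists were chosen with earlier results of these data known. Alternatives were other thresholds, other sets of rows for the adjustment, a minimum fold and recentring.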

Additional observations from a re-analysis of the deposited data

How the results depend on the processing

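The number of channel genes called in DM against WT was 11 (5 higher, 6 lower) at an adjusted p below 0.01, in place of 20. Under the other alternatives it lay between 17 and 25, and in SM versus WT between 14 and 24. With p adjusted over rows of at least 1 CPM only, the SM split was 7 higher and 10 lower, since the genes below 1 CPM leave that test. DM against SM had 0 calls under all 6 alternatives. Kcnj10 lost its SM call on recentring. With p adjusted over rows of at least 1 CPM, Kcnc2 and Kcne3 gained a call in DM versus WT and Kcnj1, Kcnj12 and Kcnj15 in SM versus WT. With p adjusted over named genes only, Kcne2 and Kcns2 gained a call in DM and Kcnj3 and Kcnj15 in SM. No direction of a called gene turned. Recentring moved fold changes by at most 0.01. No paired analysis was possible because the tables hold no value per library and the animal numbers are not shared between groups, and for the same reason no library could be left out. The group levels rest on averages whose depth is unknown, and genes close to the lowest level carry no usable fold.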

Other observations

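Lists of cell types outside the nephron were also read in the deposited tables. The 8 hepatocyte markers summed to 242 CPM in DM, 273 CPM in SM and 514 CPM in WT, with 5 called lower in each comparison with WT. Fgb, with 1.03 in DM and 1.42 in SM, and Trf, with 0.50 in each, went the other way without a call. The 8 adrenal gland markers summed to 2.25 CPM in DM, 3.35 CPM in SM and 6.13 CPM in WT, with 2 called lower in DM. In SM versus WT, Dbh, Th and Mc2r had positive values without a call. The 7 T cell markers summed to 12.1 CPM in DM, 8.31 CPM in SM and 7.43 CPM in WT, with 3 called higher in DM and 1 in SM. Cd8a was negative in both comparisons with WT and Cd3d in SM, without a call. No marker of any list was called in DM against SM. Their part in the potassium channel values was not tested.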
